A study of Homo sapiens with 6 samples.

Results

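The small nucleolar RNAs (snoRNAs), the small Cajal body RNAs and the noncoding genes that host snoRNAs were followed on the arrays. Members were the probes whose gene name starts with SNORA, SNORD, SCARNA or SNHG, or is GAS5, whatever their values. These were 384 probes for 327 of the 43317 gene names on the array. By name they fell into 188 box C/D snoRNA genes (SNORD), 97 box H/ACA snoRNA genes (SNORA), 21 Cajal body RNA genes (SCARNA) and 21 host genes (SNHG and GAS5).

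All RNA came from 22RV1, a long-established line of human prostate cancer cells that the labels call SPINK1 positive. Stable derivatives carried a lentiviral vector, pLemiR-338-5p or pLemiR-421, meant to raise the microRNA (miRNA) in its name, and the control line carried pLemiR-RFP, a vector with a red fluorescent protein. All lines grew in RPMI medium with fetal serum, penicillin and streptomycin, and puromycin, which selects for the vector. Each of the 6 arrays, all on 1 slide, carried total RNA of the control line in the dye Cy3 and total RNA of 1 miRNA line in the dye Cy5.

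The miR-338-5p group held replicates 1, 2 and 3, and the miR-421 group held a sample named Pool and replicates 1 and 2. Values below follow that order of arrays. The labels do not state what was pooled, what the letter C before the numbers means, whether a line came from 1 clone, or whether 1 control culture served all arrays. Nothing states that the replicates were separate cultures, so p-values measure only the spread between these samples, which may be technical. No dyes were swapped, so a dye effect on a probe cannot be told apart from a difference between a miRNA line and its control.

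SnoRNAs are short RNAs that guide chemical changes on ribosomal and spliceosomal RNA. Box C/D snoRNAs guide 2′-O-methylation with the enzyme fibrillarin, box H/ACA snoRNAs guide the change of uridine to pseudouridine with the enzyme dyskerin, and the Cajal body RNAs act on the small nuclear RNAs of the spliceosome. In human cells most are cut out of the introns of longer genes, many of which encode ribosomal or nucleolar proteins. The SNHG genes and GAS5 are host genes without a protein product, and several of their spliced transcripts are known to be removed by nonsense-mediated decay. The RNA was given a poly(A) tail ahead of oligo-dT labelling here, which gives RNAs without a natural tail a way into the labelled material.

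The 2 introduced miRNAs are shown because each line is named for one of them, with the seed, bases 2 to 8, in capitals (mature sequences from RefSeq, GRCh38.p14). Their seeds differ.
hsa-miR-338-5p: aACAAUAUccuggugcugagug
hsa-miR-421: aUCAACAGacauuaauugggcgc
The match to the miR-338-5p seed, ATATTGT as probes are written, stood in 3 of the 384 member probes, or 0.781%, against 0.478% of all 58201 gene probes. The match to the miR-421 seed, CTGTTGA, stood in 5 member probes, or 1.3%, against 0.558%. The members with a match in their probe were SCARNA13, SNHG18 and SNHG20 for miR-338-5p, and SCARNA13, SNORD12, SNORD30, SNORD41 and SNORD114-24 for miR-421. The matching probes of SNHG18, SNORD30 and SNORD114-24 were too dim to be tested, and none of the others was called in either line. A probe covers only 60 bases of its target, so a match in the rest of an RNA would not be seen.

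The probes that carry the results below are shown as deposited, 5′ to 3′, each of 60 bases in the sense of its RNA, with positions on hg19. In box C/D snoRNAs the box C sequence TGATGA and the last box D sequence CTGA are in capitals where the probe holds them. The first is SNORD47 (chr1:173833507-173833566, minus strand), held by GAS5, the next its neighbour SNORD44 (chr1:173835106-173835165, minus strand). SNORD86 (chr20:2636769-2636828, plus strand) lies in NOP56 and SNORD11 (chr2:203157798-203157857, plus strand) in NOP58.
SNORD47: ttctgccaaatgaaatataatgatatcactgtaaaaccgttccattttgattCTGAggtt
SNORD44: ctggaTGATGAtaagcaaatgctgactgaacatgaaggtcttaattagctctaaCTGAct
SNORD86: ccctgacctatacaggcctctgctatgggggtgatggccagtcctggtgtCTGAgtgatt
SNORD11: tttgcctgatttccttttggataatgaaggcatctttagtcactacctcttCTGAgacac
CTGA stood in 182 of the 192 box C/D probes (94.8%), in 24 of 120 H/ACA probes (20%) and in 29.7% of all gene probes. Its reverse complement stood in 15.6% of box C/D probes and 27.2% of all. TGATGA stood in 45 box C/D probes (23.4%), its reverse complement in 1.04%, against 2.83% and 2.29% of all probes. Both boxes in order stood in 21.4% of box C/D probes and 0.459% of all. Box D was thus common in probes of the class that bears it and box C was not, as most box C/D probes lacked TGATGA.

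The H/ACA snoRNAs and the Cajal body RNA with the widest changes have probes without such a mark. SNORA21 (chr17:37009118-37009177, minus strand) lies in RPL23. SNORA67 (chr17:7481350-7481409, plus strand) and SNORA48 (chr17:7478106-7478165, plus strand) both lie in EIF4A1, and SNORA61 (chr1:28906276-28906335, minus strand) and SNORA16A (chr1:28907432-28907491, minus strand) both lie in SNHG12. SCARNA16 (chr17:75085516-75085575, plus strand) lies in SNHG20.
SNORA21: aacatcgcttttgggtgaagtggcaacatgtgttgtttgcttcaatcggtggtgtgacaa
SNORA67: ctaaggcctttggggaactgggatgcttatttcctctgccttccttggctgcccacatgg
SNORA48: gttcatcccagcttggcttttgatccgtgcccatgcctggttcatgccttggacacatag
SNORA61: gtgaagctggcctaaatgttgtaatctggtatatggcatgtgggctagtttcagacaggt
SNORA16A: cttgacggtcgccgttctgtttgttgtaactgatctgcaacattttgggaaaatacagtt
SCARNA16: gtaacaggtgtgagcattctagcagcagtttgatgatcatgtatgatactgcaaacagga
Each small RNA gene was given the gene that spans it on the same strand in the RefSeq table of GRCh38.p14, used for names and neighbours only.

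Detection differed by class. Tests covered probes that rose well above background, in Cy5 or in Cy3, on 3 or more of the 6 arrays. That left 84 of 188 box C/D genes (44.7%), 82 of 97 H/ACA genes (84.5%), 18 of 21 Cajal body RNA genes (85.7%) and 18 of 21 host genes (85.7%), 202 genes in all, of 21690 genes tested on the array. Of the 306 small RNA genes, 100 were above background on no array and 22 on 1 or 2 arrays. All 8 SNORD113, all 29 SNORD114 and all 10 SNORD115 genes went untested. Of these genes, which sit in imprinted clusters of similar copies, 1, SNORD114-20, was above background on 1 array. The untested host genes were SNHG4 and SNHG23, on no array, and SNHG22, on 1. The 18 tested host genes were above background on all 6 arrays.

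The arrays were alike in signal. Between 39.6% (miR-421 replicate 1) and 46.2% of gene probes were well above background in Cy5, and 42% to 45.7% in Cy3, and no gene probe was saturated. SPINK1, which names the cell type, fell in both lines, with mean log2 ratios of -3.97 (miR-338-5p, adjusted p = 0.0418) and -6.61 (miR-421, adjusted p = 0.00776). The 8 listed prostate markers had median log2 ratios of -0.64 and -0.7. None of the 5 tested markers of leukocytes, fibroblasts and endothelial cells passed the test (by limma, 0 and 1 at an unadjusted p under 0.05), and COL1A2 and PECAM1 were above background on no array. In bulk RNA, fewer cells that make an RNA and less of it per cell cannot be told apart.

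A log2 ratio below is the miRNA line over control, so that positive values are higher in the miRNA line. It was tested with limma over all probes, and "called" means a Benjamini-Hochberg adjusted p under 0.05. Of 202 members 14 were called in the miR-338-5p line, 3 higher and 11 lower, or 6.93%. Of all genes tested 9.23% were called, 3.98% higher and 5.25% lower. The miR-421 line had 53 members called, 14 higher and 39 lower, or 26.2%, against 22.7% of all genes, 10% higher and 12.6% lower. The share of members called was thus near that of all genes in both lines.

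The calls of the miR-338-5p line rested on few arrays. They numbered 0 without its replicate 1, 3 without its replicate 2, 3 without its replicate 3, 8 without the miR-421 pool and 3 without miR-421 replicate 2, which shares the estimate of the spread. A trended and robust prior left 0. Those of the miR-421 line numbered 25 without the pool, 34 without replicate 1 and 5 without replicate 2. The split between higher and lower also moved with the scaling: with each array centred on its median in place of loess it was 0 to 17 in the miR-338-5p line and 6 to 37 in the miR-421 line. With the image software's log ratio it was 5 to 6 and 18 to 32, and the authors' deposited value table gave 9 to 8 and 21 to 33.

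**Figure D1:**
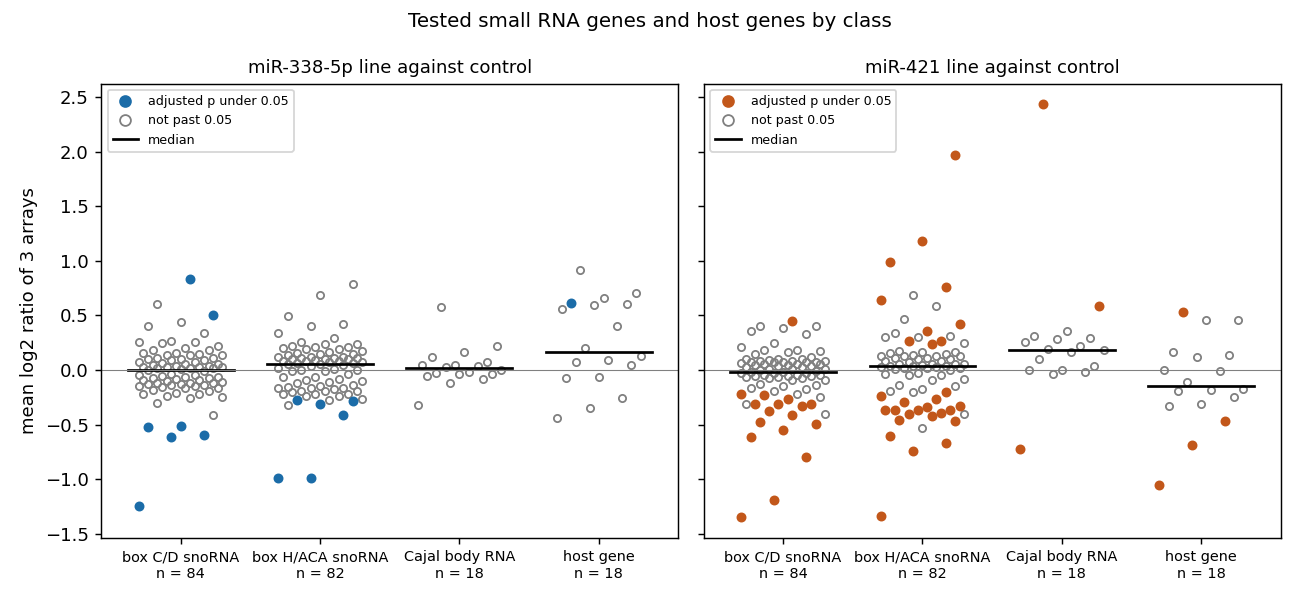
Mean log2 ratio, miRNA line over control (vertical axis), of each tested member gene by class (horizontal axis), for the miR-338-5p line (left) and the miR-421 line (right). Filled points passed an adjusted p of 0.05 and bars are class medians, which lie between -0.143 and 0.188. The highest points, SCARNA16 at 2.43 and SNORA21 at 1.97, are both in the miR-421 line.

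Class medians lay between -0.143 and 0.188. The Cajal body RNAs had the highest, 0.188 in the miR-421 line (0.297, 0.029 and 0.205 by array), and 0.014 in the miR-338-5p line. The median log2 ratio of the 184 small RNA genes was 0.016 in the miR-338-5p line and 0.027 in the miR-421 line, beside -0.001 and 0.006 over all genes tested. Its values by array ran from -0.032 to 0.075 and from -0.026 to 0.012. The median of the 18 host genes was 0.165 in the miR-338-5p line (0.11, 0.375 and 0.045 by array) and -0.143 in the miR-421 line (-0.089, 0.021 and -0.24 by array). The host median of the miR-421 arrays thus lay on both sides of 0. It was -0.003 with median centring and with the authors' deposited value table. In the miR-338-5p line that table gave 0.365, the mean over the probes of a gene 0.346, and leaving out 1 array 0.109 to 0.238. The small RNA median of the miR-421 line moved to 0.168 with the image software's log ratio and to -0.009 without replicate 1.

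Of 18 host genes 1 was called in the miR-338-5p line (5.56%, against 9.23% of all genes). The miR-421 line had 4 (22.2%, against 22.7%). In the miR-338-5p line 13 of the 18 means lay above 0, against 10805 of all 21690 genes. By limma 10 of the 18 had an unadjusted p under 0.05 in either direction, against 6013 of all genes. In the miR-421 line 6 means lay above 0, against 11149, and 7 genes had such a p, against 8413. SNHG7, a widely expressed noncoding host, was the 1 host called in the miR-338-5p line, and it rose in both lines. Its log2 ratios were 0.57, 0.86 and 0.41 on the miR-338-5p arrays (mean 0.61 ± 0.23, SD, n = 3, adjusted p = 0.0198). On the miR-421 arrays they were 0.59, 0.51 and 0.50 (mean 0.53 ± 0.05, SD, n = 3, adjusted p = 0.015). All 6 arrays were above 0 and the groups overlapped. Both calls were lost with plain background subtraction, the image software's log ratio and the authors' deposited value table, and the miR-338-5p call also with median centring.

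Probes of SNHG7 disagreed. In each line 3 of its 4 tested probes were called higher, up to 0.89 and 0.77, while the other lay at -0.29 and -0.31 and was not called. The probe with the values above (chr9:139619188-139619247, minus strand) and the one below 0 (chr9:139619969-139620028, minus strand) are shown because they give opposite signs for 1 gene name.
SNHG7: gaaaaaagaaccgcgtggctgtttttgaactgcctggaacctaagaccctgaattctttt
SNHG7 other probe: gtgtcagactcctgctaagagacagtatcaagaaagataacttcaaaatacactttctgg

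SNHG5, a host of box C/D snoRNAs, had the lowest host value, in the miR-421 line. There it was -0.69, -1.40 and -1.06 (mean -1.05 ± 0.36, SD, n = 3, adjusted p = 0.0201). The miR-338-5p arrays read -0.02, 0.66 and -0.24 (adjusted p = 0.733). All 3 miR-421 arrays lay below all 3 miR-338-5p arrays. All 6 of its tested probes were called lower in the miR-421 line, between -1.11 and -0.73, and none in the miR-338-5p line, between -0.03 and 0.14. The difference between the lines, 1.18 (95% interval 0.49 to 1.88), did not pass the test (adjusted p = 0.189).

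SNHG9 and SNHG21 fell in the miR-421 line as well. SNHG9, which holds SNORA78, read -0.79, -0.40 and -0.88 there (mean -0.69 ± 0.25, SD, n = 3, adjusted p = 0.0121) and -0.21, 0.09 and -0.08 on the miR-338-5p arrays. The groups did not overlap. SNHG21 read -0.53, -0.16 and -0.71 (mean -0.47 ± 0.28, SD, n = 3, adjusted p = 0.0424) and -0.37, -0.65 and -0.30 in the miR-338-5p line (adjusted p = 0.0774). Here the groups overlapped, and its other probe was not called, at -0.06 and -0.09.

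GAS5, a host of many snoRNAs that is known to build up when growth stops, was not called. It read 0.45, 1.19 and 0.03 in the miR-338-5p line and -0.34, 0.03 and -0.24 in the miR-421 line. The first group spread widely, and its lowest array met the highest of the second near 0.03.

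SNHG8 and SNHG6 had the highest host means in the miR-338-5p line without passing the test. SNHG8 read 0.88, 1.42 and 0.45 (adjusted p = 0.0505) and -0.23, 0.12 and -0.64 in the miR-421 line, with no overlap. SNHG6 read 1.27, 0.83 and 0.02 (adjusted p = 0.116) and -0.05, 0.29 and -0.24 in the same order. In both, replicate 3 was the lowest of its group.

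SNHG1 read 0.94, 0.89 and 0.15 in the miR-338-5p line (adjusted p = 0.0665), and its other probe was called higher at 0.79. The miR-421 arrays gave 0.12, -0.03 and 0.40. SNHG12 read 1.08, 0.69 and 0.04 (miR-338-5p) and -0.59, 0.11 and -0.52 (miR-421). In both hosts replicate 3 of the miR-338-5p line lay near the miR-421 arrays, apart from its own group.

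SNHG15 read 0.87, 0.45 and 0.46 in the miR-338-5p line and -0.02, -0.72 and 0.21 in the miR-421 line, and 1 of its 3 probes was called, higher at 0.70, in the first. SNHG11 read 0.20, 0.26 and 0.14 (miR-338-5p) and -0.03, 0.73 and 0.67 (miR-421). Its brightest probe, used here, was not called, but its other 2 probes were called higher in both lines, up to 0.99 in the miR-338-5p line. SNHG17 read -0.01, 0.31 and -0.07 (miR-338-5p) and -0.07, 0.89 and 0.56 (miR-421), with 1 of 3 probes called higher, at 0.38, in the miR-338-5p line.

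The remaining hosts were not called in either line. SNHG3 read -0.48, -0.52 and -0.04 (miR-338-5p) and -0.19, -0.48 and -0.24 (miR-421), below 0 on all arrays. SNHG20, which holds SCARNA16, read 0.37, 0.13 and 0.72 (miR-338-5p) and 0.20, -0.05 and 0.22 (miR-421). SNHG10 read -0.31, -0.08 and 0.15 (miR-338-5p) and -0.05, 0.01 and -0.28 (miR-421).
SNHG16 and SNHG19 had arrays on both sides of 0 in each line. The first read -0.34, -0.49 and 0.05 (miR-338-5p) and 0.43, -0.62 and 0.17 (miR-421). The second read -0.22, 0.51 and -0.02 (miR-338-5p) and -0.19, 0.22 and -0.60 (miR-421). SNHG18 stayed within 0.28 of 0, at 0.02, 0.03 and 0.08 (miR-338-5p) and -0.10, 0.28 and 0.24 (miR-421).

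Counted by probe, 8 of the 37 tested host probes were called in the miR-338-5p line (21.6%), all 8 higher, against 8.98% of all 27492 probes. In the miR-421 line 13 were called (35.1% against 21.6%), 5 higher and 8 lower. Several of these probes share a gene, SNHG5 alone giving 6 of the 8 lower calls.

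**Figure D2:**
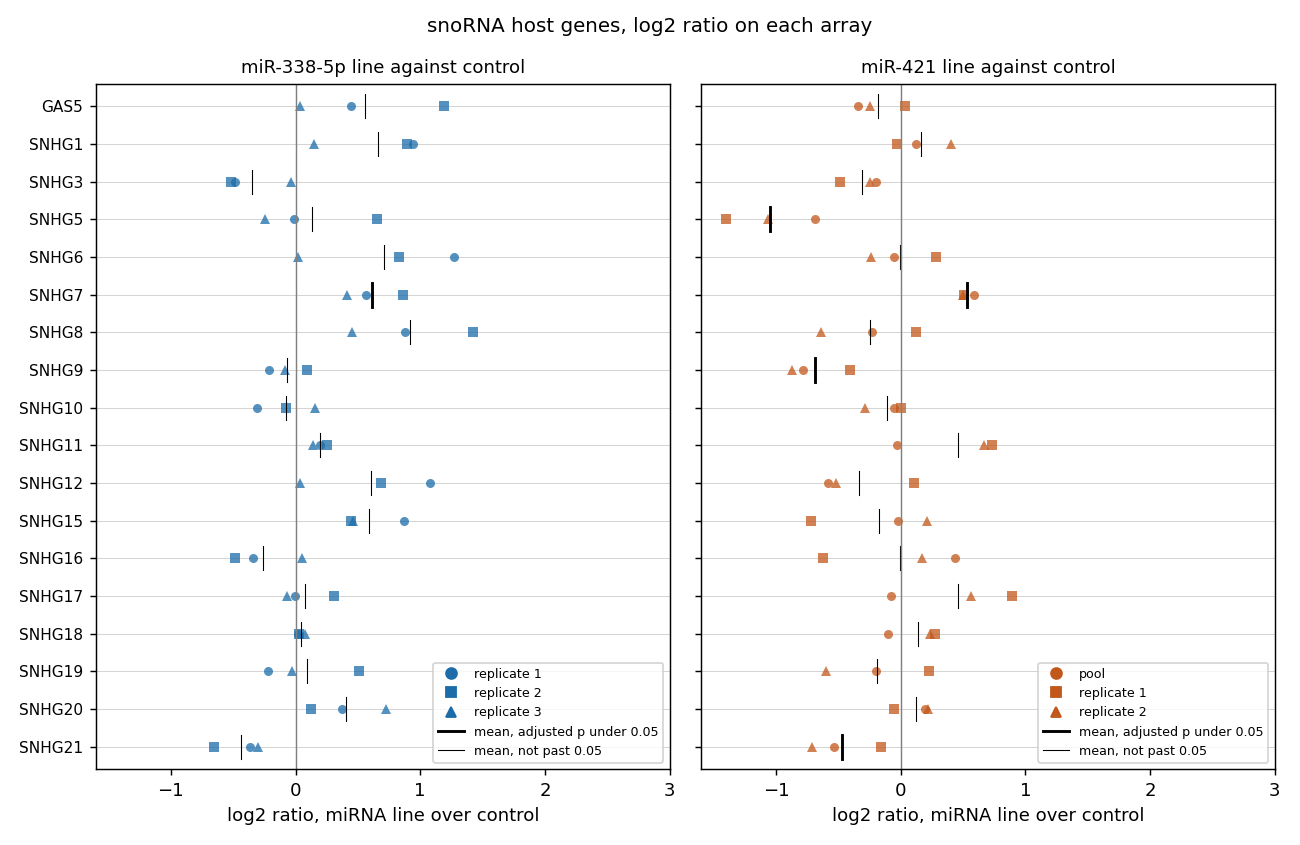
Log2 ratio, miRNA line over control (horizontal axis), of the 18 tested host genes (vertical axis) on each array, with the miR-338-5p line left and the miR-421 line right. Symbols are arrays and vertical marks are means, thick where the adjusted p was under 0.05. SNHG7 lies between 0.41 and 0.86 on all 6 arrays, and SNHG5 between -1.40 and -0.69 on the miR-421 arrays.

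Box C/D snoRNAs that were called fell, with 1 exception in the miR-421 line. There 16 of 84 were lower and 1, SNORD105B, higher (20.2% called, against 22.7% of all genes). Those of the miR-338-5p line were 5 lower and 2 higher, SNORD105B and SNORD3B-1 (8.33% called, against 9.23%). SNORD47, SNORD86, SNORD11 and SNORD22 were called lower in both lines, which were each set against the same control line.

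SNORD47, which guides methylation of the large ribosomal RNA, had the lowest miR-421 mean of all members. Before normalization its spots read 92.8, 53.6 and 62.8 in Cy5 against 277, 265 and 245 in Cy3 on the miR-421 arrays. The log2 ratios were -1.28, -1.22 and -1.54 (mean -1.35 ± 0.17, SD, n = 3, adjusted p = 0.00255). On the miR-338-5p arrays they were -0.65, -0.31 and -0.59 (mean -0.51 ± 0.18, SD, n = 3, adjusted p = 0.0307). The miR-421 arrays all lay below the miR-338-5p arrays, and the difference of 0.83 (95% interval 0.51 to 1.16) did not pass the test (adjusted p = 0.102).

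SNORD86 read -1.53, -1.45 and -0.75 in the miR-338-5p line (mean -1.24 ± 0.43, SD, n = 3, adjusted p = 0.02), the lowest mean there. The miR-421 arrays gave -1.02, -1.56 and -0.99 (mean -1.19 ± 0.32, SD, n = 3, adjusted p = 0.0121). The lines overlapped, with a difference of -0.05 (95% interval -0.69 to 0.58). SNORD11 read -0.32, -0.92 and -0.55 (adjusted p = 0.0396) in the miR-338-5p line and -0.63, -0.94 and -0.82 in the other (adjusted p = 0.0117), overlapping too.

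SNORD22 had a narrow spread, -0.52, -0.50 and -0.56 in the miR-338-5p line (mean -0.52 ± 0.03, SD, n = 3, adjusted p = 0.012). The miR-421 line read -0.56, -0.34 and -0.52 (adjusted p = 0.00787). SNORD116-19, from the imprinted cluster of chromosome 15, fell in the miR-338-5p line, -0.42, -0.87 and -0.54 (mean -0.61 ± 0.24, SD, n = 3, adjusted p = 0.0331), and lay above 0 on the miR-421 arrays, 0.13, 0.55 and 0.40 (adjusted p = 0.0736). The other 5 tested SNORD116 genes were not called and spanned -0.30 to -0.10 and -0.12 to 0.10. Probes of the 6 genes share 25 to 55 of 60 bases, and how far 1 RNA binds several of them was not tested.

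SNORD3B-1, a U3 snoRNA needed to cut the ribosomal precursor RNA, was the brightest small RNA. It read 0.60, 1.26 and 0.65 in the miR-338-5p line (mean 0.84 ± 0.37, SD, n = 3, adjusted p = 0.0395). In the miR-421 line it read 0.26, 0.78 and 0.18 (adjusted p = 0.141), and its second probe was called in neither line. SNORD105B rose to 0.45, 0.68 and 0.37 (adjusted p = 0.0208) in the miR-338-5p line and 0.55, 0.38 and 0.41 in the other (adjusted p = 0.0153), on all 6 arrays. The other box C/D genes called in the miR-421 line were SNORD5, SNORD6, SNORD7, SNORD35B, SNORD36C, SNORD38A, SNORD43, SNORD52, SNORD54, SNORD60, SNORD87 and SNORD99, between -0.62 and -0.22.

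The size of these falls depends on the background. The small RNA genes were dim, with a median log2 intensity of 6.34 beside 11.07 for host genes, and the offset of 50 pulls ratios of dim spots toward 0. Plain subtraction of the background gave SNORD22 -1.40 and -1.23 in place of -0.52 and -0.47, and SNORD11 -1.04 and -1.50 in place of -0.60 and -0.80. It gave SNORD116-19 -1.11 in the miR-338-5p line, and SNORD105B 0.81 and 0.80.

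H/ACA snoRNAs had the highest share of calls of the 4 classes in the miR-421 line. There 29 of 82 were called (35.4%, against 22.7% of all genes), 10 higher and 19 lower. The 29 include all 7 SNORA70 copies and 3 SNORA11 copies, described below, which may not be separate measurements. In the miR-338-5p line 6 were called, all lower (7.32%, against 9.23%). SNORA21, a guide for the large ribosomal RNA, read 2.39, 1.76 and 1.76 on the miR-421 arrays (mean 1.97 ± 0.36, SD, n = 3, adjusted p = 0.00316). Its spots before normalization were 735, 325 and 502 in Cy5 and 112, 123 and 124 in Cy3. The miR-338-5p arrays read 0.18, 0.61 and 0.08 (adjusted p = 0.307), all below the miR-421 arrays, with a difference of -1.68 (95% interval -2.23 to -1.13, adjusted p = 0.0775).

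SNORA67 went opposite ways. It read -1.04, -0.99 and -0.93 in the miR-338-5p line (mean -0.99 ± 0.06, SD, n = 3, adjusted p = 0.0288). In the miR-421 line it read 1.53, 0.60 and 1.40 (mean 1.18 ± 0.50, SD, n = 3, adjusted p = 0.0106). Its Cy5 spots before normalization were 158, 160 and 174 against 1196, 428 and 1117, while its Cy3 spots, the control, were 459, 463 and 427 and 372, 411 and 387. The difference of -2.16 (95% interval -2.76 to -1.56) was the nearest of all members to the threshold, at an adjusted p of 0.0688. Its adjusted p was 0.0351 with no background correction and 0.023 without miR-421 replicate 1.

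SNORA61 fell in both lines. It read -1.09, -1.03 and -0.85 in the miR-338-5p line (mean -0.99 ± 0.12, SD, n = 3, adjusted p = 0.0176) and -1.42, -0.93 and -1.67 in the miR-421 line (mean -1.34 ± 0.38, SD, n = 3, adjusted p = 0.00529). The groups overlapped. SNORA48 rose in the miR-421 line, 1.33, 0.57 and 1.07 (adjusted p = 0.0129), with -0.13, 0.35 and 0.15 in the miR-338-5p line.

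SNORA16A and SNORA74B rose less in the miR-421 line. The first read 0.87, 1.17 and 0.25 (adjusted p = 0.0489) and, uncalled, 0.42, 1.19 and 0.75 in the miR-338-5p line (adjusted p = 0.0707). The second read 0.88, 0.38 and 0.67 (adjusted p = 0.0217) and 0.17, 0.63 and 0.22, and its miR-421 mean was 1.35 with plain subtraction. SNORA24 fell in the miR-421 line, -0.73, -0.50 and -1.01 (adjusted p = 0.0363), and read -0.34, 0.58 and 0.12 in the other, with no overlap.

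SNORA78, SNORA76C and SNORA71A were among the 5 brightest small RNA genes, each through a probe designed on a longer transcript, not on the small RNA. SNORA78 read -0.71, -0.45 and -0.83 in the miR-421 line (adjusted p = 0.00958) and -0.11, 0.19 and -0.03 in the other, but its second probe was not called at -0.03, and the authors' deposited value table gave -0.34. SNORA76C, now named SNORA50C, read -0.31, 0.29 and -0.25 (miR-338-5p) and 0.04, 0.42 and -0.35 (miR-421). SNORA71A read -0.08, 0.27 and 0.10 (miR-338-5p) and 0.07, 0.83 and 0.52 (miR-421). Neither was called, and the small RNA probe of SNORA71A lay at 0.05 and 0.03. SNORA12, with the larger of its 2 signals from a longer transcript too, was called lower in both lines at -0.29 and -0.40, while its probe on the small RNA lay at 0.06 and 0.14. Of the small RNA genes called, 2 of 13 (miR-338-5p) and 3 of 49 (miR-421) rested on such probes, namely SNORA10, SNORA12, SNORA75 and SNORA78.

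1 family of copies was called in full. All 7 SNORA70 genes, copies spread over several chromosomes, were called lower in the miR-421 line, between -0.47 and -0.29. They lay between -0.28 and -0.12 in the miR-338-5p line, and 1, SNORA70F, was called. Their probes share 27 to 55 of 60 bases at the best ungapped overlap. The probe of SNORA70, held by RPL10, and those of SNORA70D, in PHLPP2, and SNORA70F, in COBLL1, are shown because their letters are nearly the same, with bases that differ from SNORA70 in capitals.
SNORA70: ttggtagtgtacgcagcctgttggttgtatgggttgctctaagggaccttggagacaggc
SNORA70D: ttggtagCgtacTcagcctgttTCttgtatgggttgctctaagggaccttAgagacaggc
SNORA70F: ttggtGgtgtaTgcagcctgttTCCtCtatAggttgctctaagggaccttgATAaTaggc
How far 1 RNA binds several of these probes was not tested, so the 7 calls may not be separate measurements. SNORA11B, SNORA11C and SNORA11D were likewise called higher in the miR-421 line, from 0.27 to 0.42, and probes of the 4 SNORA11 genes share 17 to 42 bases. The other H/ACA genes called in the miR-421 line were SNORA49 and SNORA59B, higher at 0.24 and 0.27, and SNORA18, SNORA25, SNORA32, SNORA33, SNORA45B, SNORA58, SNORA72 and SNORA75, lower. SNORA72 and SNORA10 were also lower in the miR-338-5p line, at -0.31 and -0.42.

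Among Cajal body RNAs, SCARNA16 had the highest mean of all members. It read 2.39, 2.55 and 2.37 on the miR-421 arrays (mean 2.43 ± 0.10, SD, n = 3, adjusted p = 0.00344), from spots of 1157, 873 and 1190 in Cy5 and 188, 193 and 197 in Cy3. On the miR-338-5p arrays it read 0.35, 1.26 and 0.11 (adjusted p = 0.147). The groups did not overlap, and the difference was -1.86 (95% interval -2.59 to -1.14, adjusted p = 0.103, or 0.0422 without miR-338-5p replicate 2).

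SCARNA10 rose to 0.60, 0.51 and 0.64 in the miR-421 line (adjusted p = 0.00543), where its control spot was above background on 2 of 3 arrays. SCARNA12 fell there, -0.49, -0.78 and -0.90 (adjusted p = 0.0228), and read -0.42, 0.08 and -0.62 in the other line. SCARNA22, among the brightest, read 0.14, -0.13 and -0.37 (miR-338-5p) and 0.33, 0.14 and 0.42 (miR-421) and was not called. By limma none of 18 Cajal body RNAs was called in the miR-338-5p line, where 3 had an unadjusted p under 0.05.

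**Figure D3:**
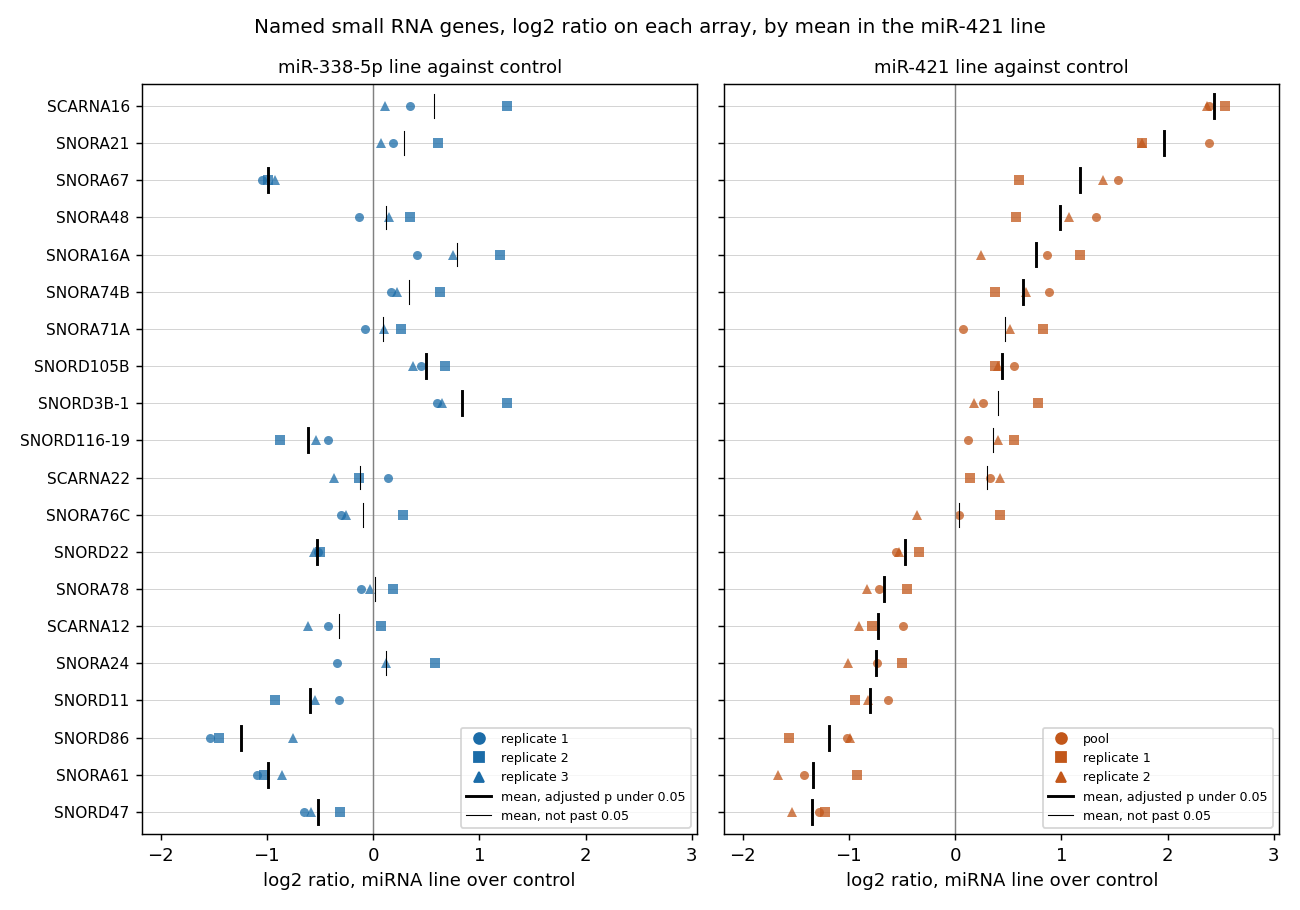
Log2 ratio, miRNA line over control (horizontal axis), of 20 named small RNA genes (vertical axis, ordered by mean in the miR-421 line) on each array. Symbols are arrays and vertical marks are means, thick where the adjusted p was under 0.05. SNORA67 lies near -1 on the miR-338-5p arrays and at or above 0.60 on the miR-421 arrays, and SNORD47 lies at or below -1.22 on the latter.

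Calls of named genes differed in how far they rested on 1 array. SCARNA16, SNORA21, SNORA61 and SNORD47 were called in the miR-421 line with each of the 6 arrays left out. The other 15 of 19 named genes called there were lost without its replicate 2, at adjusted p from 0.0606 to 0.18. Without the pool 6 of the 19 were lost and without replicate 1, 4. All 10 named genes called in the miR-338-5p line were lost without replicate 1 (adjusted p from 0.0517 to 0.109), 8 without replicate 2, 8 without replicate 3, 7 without miR-421 replicate 2 and 3 without the miR-421 pool. The trended and robust prior also ended all 10, at adjusted p from 0.0605 to 0.0956. Of these 10, the image software's log ratio ended 6, centring on medians 5, the authors' deposited value table ended 4, plain subtraction 4 and testing all probes, dim ones included, 4. Of the 19 in the miR-421 line, median centring ended 6, SNHG5, SNORA16A, SNORA48, SNORA67, SNORA74B and SNORD105B, and each of the other background, ratio and filter settings ended 3 or fewer. No named call changed sign in these runs.

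Directly compared, the lines did not differ in any member at the threshold. No member was called in the miR-338-5p line minus the miR-421 line, by limma, against 0.0461% (10 of 21690) of all genes. By that test 25 of the 202 members had an unadjusted p under 0.05, against 3102 of all 21690 genes. The lowest p of the members were those of SNORA67, SNORA21, SNORD47 and SCARNA16. That SNORA67, SNORA21, SNORD47 and SCARNA16 miss the threshold does not show that the lines act alike. Their intervals above exclude equal values in both lines. Those intervals, unlike the adjusted p, make no allowance for the number of probes tested.

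A small RNA cut from an intron shares its primary transcript with the gene around it, so both were set side by side. A tested holding gene was found for 146 tested small RNA genes, in 93 holding genes. In the miR-338-5p line 72 of the 146 pairs had the same sign (49.3%), and in the miR-421 line 78 (53.4%). Pearson's r across pairs was 0.013 and 0.191, Spearman's rho -0.035 and 0.148. These describe genes on the same arrays, several of which share a holding gene, and carry no test. The small RNA genes were dim, with a median log2 intensity of 6.34 beside 7.05 over all genes tested. The offset pulls their ratios toward 0, so a low r does not show that they vary apart from their holding genes. In the miR-338-5p line the small RNA gene was called in 11 pairs and the holding gene in 20. Both were called in 1, SNORA10 lower and RPS2 higher. SNORA10 was read through a probe on a longer transcript, its small RNA probe being uncalled at -0.23. In the miR-421 line the small RNA gene was called in 41 pairs and the holding gene in 50. Both were called in 18, 13 of them with the same sign. Of the 13, 5 share TAF1D. SNORA78 with SNHG9 is also among them, through a probe on a longer transcript, its small RNA probe being uncalled at -0.03.

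**Figure D4:**
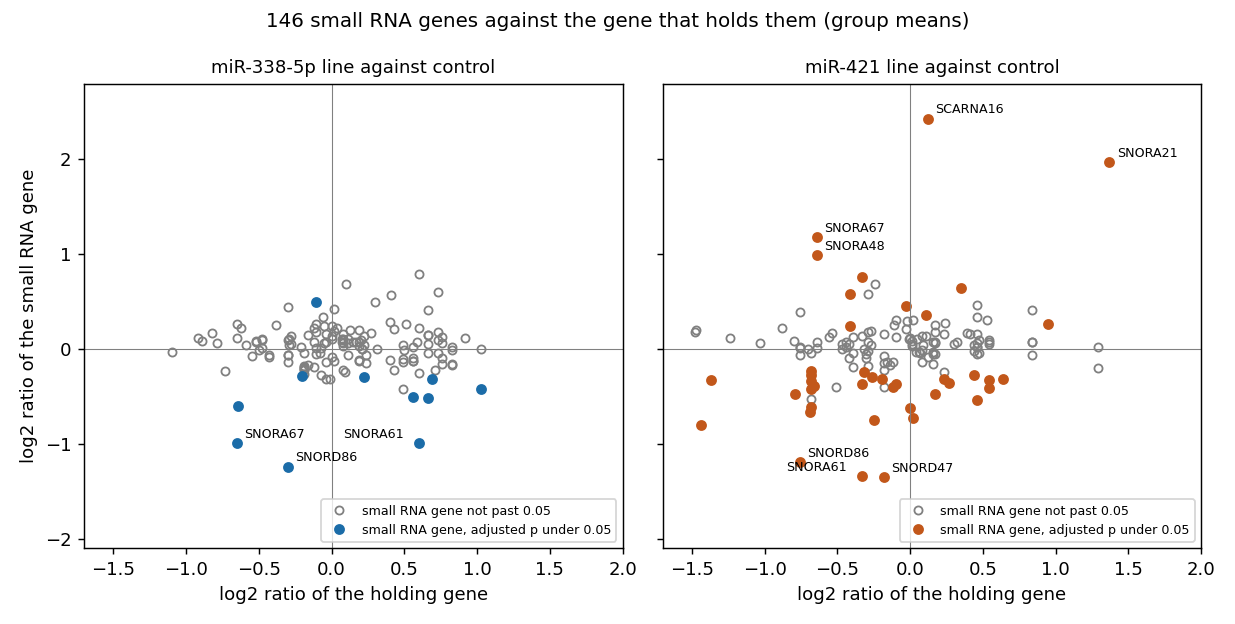
Mean log2 ratio of 146 small RNA genes (vertical axis) against that of the gene that holds them (horizontal axis), for the miR-338-5p line (left) and the miR-421 line (right). Filled points are small RNA genes with an adjusted p under 0.05. Pearson's r is 0.013 and 0.191, and ratios of dim small RNA genes are pulled toward 0.

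RPL23, a protein of the large ribosomal subunit, rose with the snoRNA it holds. It read 1.19, 1.70 and 1.23 in the miR-421 line (mean 1.37 ± 0.28, SD, n = 3, adjusted p = 0.00603) beside SNORA21 at 1.97. NOP58, a core protein of box C/D particles, fell with SNORD11: it read -0.98, -2.15 and -1.18 (adjusted p = 0.0149) beside -0.80. In both pairs all 3 miR-421 arrays agreed in sign.

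TAF1D, a factor of RNA polymerase I, holds 7 tested snoRNAs, and all 7 lay below 0 in the miR-421 line. TAF1D itself read -0.30, -1.12 and -0.62 there (adjusted p = 0.0266). SNORA18, SNORA25, SNORA32, SNORD5 and SNORD6 were called, and SNORA32 had the lowest mean, -0.61. SNORA8, at -0.53, and SNORA1, at -0.04, were not. For the miR-338-5p line TAF1D, at -0.19, and the 7, from -0.26 to -0.04, were not called.

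In other genes the measured values of the snoRNAs of 1 transcript parted. GAS5 held 5 tested snoRNAs, of which SNORD47 fell while SNORD44 lay at -0.07, SNORD74 at -0.15, SNORD76 at -0.22 and SNORD80 at -0.40 in the miR-421 line, uncalled. SNHG12 held SNORA61, which fell to -1.34, SNORD99, which fell to -0.37, SNORA16A, which rose to 0.76, and SNORA44, uncalled at 0.14. In NOP56, another core protein of box C/D particles, SNORD86 fell while SNORA51, SNORD56, SNORD57 and SNORD110 were called in neither line. In SNHG1, SNORD22 fell in both lines and its 5 neighbours were not called.

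EIF4A1, a helicase of translation initiation, was uncalled at -0.65 and -0.64. Its SNORA67 and SNORA48 rose in the miR-421 line to 1.18 and 0.99, and SNORD10 lay at 0.07. In the miR-338-5p line SNORA67 fell, while SNORA48 and SNORD10 lay at 0.12 and 0.26. SCARNA16 at 2.43 stood beside SNHG20 at 0.12 in the miR-421 line. RPL13A, a ribosomal protein, rose in both lines (0.73 and 0.84), and none of its 4 tested snoRNAs was called.

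**Figure D5:**
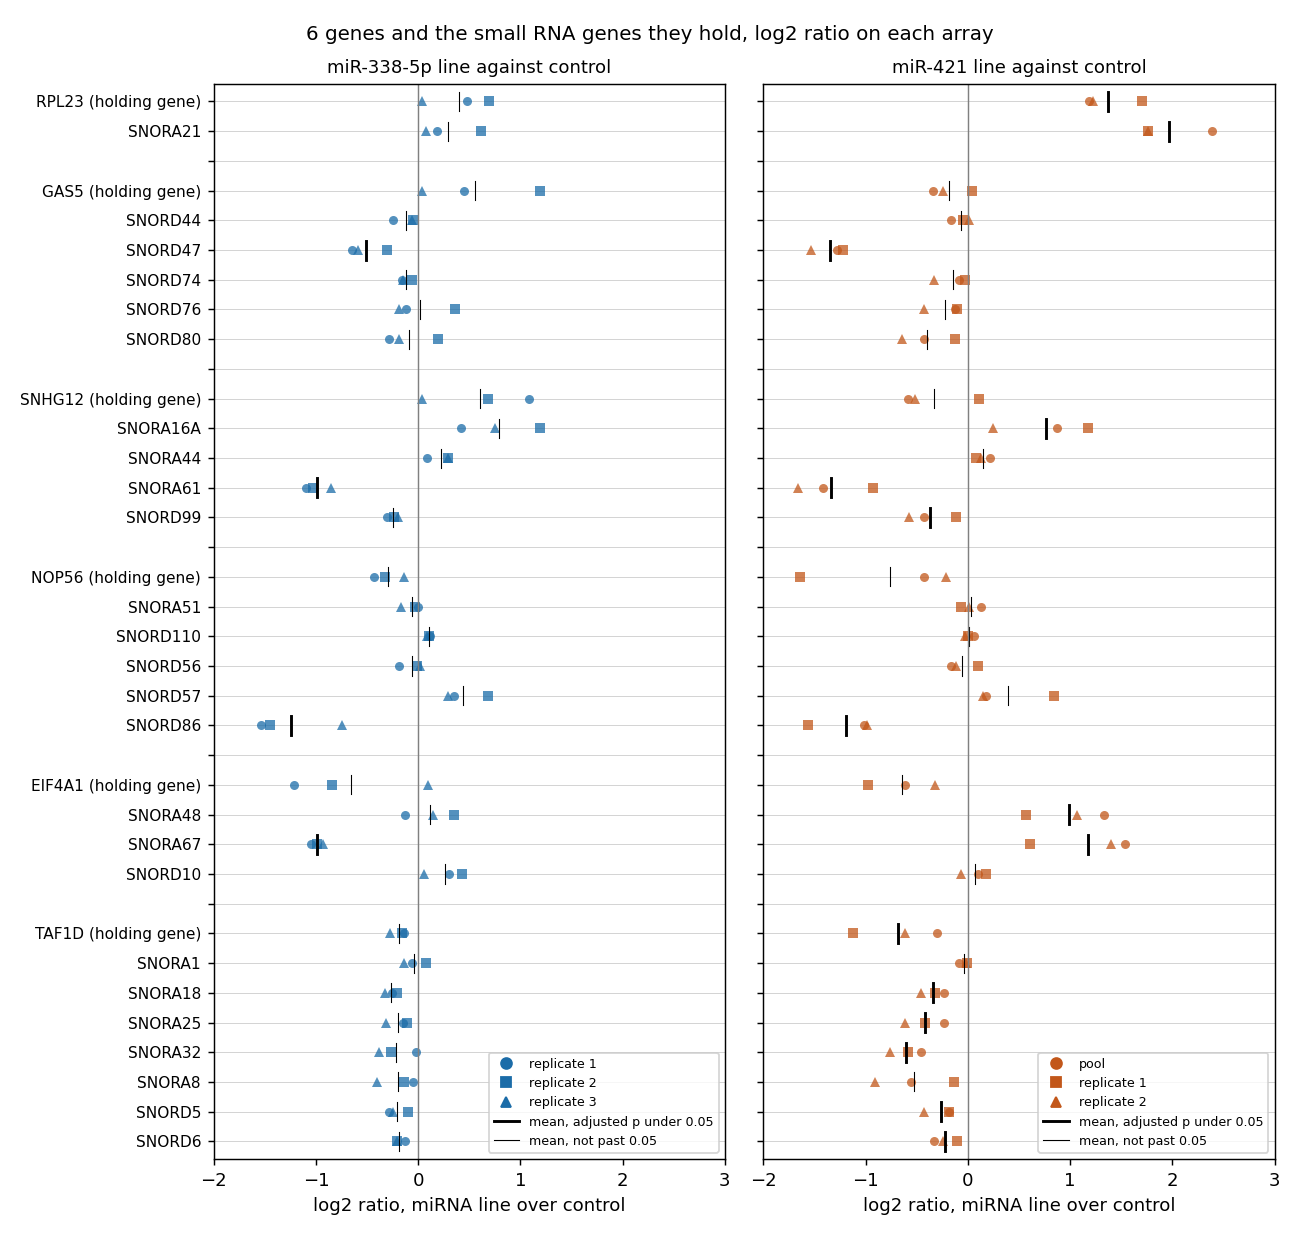
Log2 ratio, miRNA line over control (horizontal axis), on each array for 6 genes and the tested small RNA genes they hold (vertical axis). Symbols are arrays and vertical marks are means, thick where the adjusted p was under 0.05. In the miR-421 line all 7 small RNA genes of TAF1D have means below 0, while those of SNHG12 run from -1.34 to 0.76.

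The proteins that carry snoRNAs were read from a list of the 8 core proteins on the array. By limma none was called in the miR-338-5p line (1 at an unadjusted p under 0.05, median log2 ratio -0.12) and 4 were lower in the miR-421 line (median -0.44), where 12.6% of all genes were lower. The 4 were NOP58, at -1.44, and 3 proteins of the H/ACA particle, DKC1 (dyskerin) at -0.56 (adjusted p = 0.0371), GAR1 at -0.63 (adjusted p = 0.0316) and NOP10 at -0.23 (adjusted p = 0.0416). FBL, fibrillarin, was uncalled at 0.12 and 0.15.

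Of 15 assembly and Cajal body factors, 1 was called in the miR-338-5p line, beside 9.23% of all genes. This was COIL, the coilin of Cajal bodies, lower at -0.69. Called in the miR-421 line, beside 22.7% of all genes, were 6: COIL (-1.29), NOLC1 (-1.08), NUFIP1 (-0.46) and ZNHIT3 (-0.53) were lower, and PIH1D1 and RUVBL1 higher. Of 10 factors of nonsense-mediated decay, 2 were called in the miR-338-5p line and 3 in the miR-421 line, beside 9.23% and 22.7% of all genes. SMG5 rose (0.74 and 0.60) and SMG8 fell in both lines, and UPF2 fell in the miR-421 line (-1.20). The medians of both lists lay between -0.16 and 0.06.

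Of 34 listed protein-coding genes with snoRNAs in their introns, 5 were higher and 2 lower in the miR-338-5p line, and 8 higher and 8 lower in the miR-421 line, where 9.23% and 22.7% of all genes were called. RPS2 was the highest in the first, at 1.03, and HSPA8, a chaperone, the lowest, at -1.69. The miR-421 line gave RPS2 1.29, HSPA8 -1.05 and NCL, nucleolin, -1.24. By limma none of 7 tested noncoding hosts under other names was called in either line (2 in each at an unadjusted p under 0.05). Of 12 other small noncoding RNA genes, RN7SK (0.79 and 0.77) and RNU12 (1.12 and 0.96) rose in both lines and VTRNA1-3 in the miR-421 line. These lists were chosen with earlier results of these data known, and their part in the values of the snoRNAs was not tested.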

How the data were processed

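Total RNA was set, array by array, against control RNA on 2-colour Agilent arrays. Per the file headers, the authors deposited Agilent Feature Extraction output, with spot intensity, local background, a log10 ratio and detection flags, and probe positions on hg19. The authors' deposited value table holds log2 ratios in the same direction. Their centring is not stated, and column medians run from -0.163 to 0.0339.

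Here the mean intensity was corrected with normexp (offset 50) and normalized by loess within each array. Outlier spots were left out. Tests covered probes well above background, in Cy5 or Cy3, on 3 or more of 6 arrays. All 6 arrays entered 1 limma fit (limma 3.58.1, R 4.3.3), with each line against 0, the line difference and Benjamini-Hochberg adjustment. Each gene is given by its brightest probe. Intervals are 95% intervals of the fit. The number of arrays limits precision, and the fit was tested on simulated data.

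Text names every tested host gene, up to 6 called small RNA genes per direction and comparison, and the 5 brightest small RNA genes, and other genes chosen after their values were seen. Members and lists were chosen with earlier results of these data known. Of 384 probes, 346 were matched to RefSeq by accession and 31 by symbol. Other backgrounds, scalings, filters, priors and left-out arrays were tried.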

Additional observations from a re-analysis of the deposited data

Results flagged for a closer look

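The signs of single arrays were compared for the tested host genes and for the small RNA genes named for their calls or brightness. For 2 of these genes every array of one line lay on the opposite side of 0 from every array of the other line. Other members and the other genes of the array were not checked in this way, so how common the pattern is among all genes is not known. The 2 genes were among those checked because of their calls. SNORA67 was below 0 on all 3 miR-338-5p arrays and above 0 on all 3 miR-421 arrays, and its log2 ratio in the miR-338-5p line minus that in the miR-421 line was -2.16 (limma, adjusted p = 0.0688). SNORD116-19 was below 0 on the miR-338-5p arrays and above 0 on the miR-421 arrays, with a difference of -0.97 (limma, adjusted p = 0.117). Neither difference passed the threshold over all genes.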

How the results depend on the processing

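No call of a named gene changed sign under any alternative in which single genes were followed. Other called members were not followed singly, nor was any gene in the run with the mean over a gene's probes. Where a count or median moved, the cause was not tested. The 14 members called in the miR-338-5p line became 9 with no filter on dim probes, 2 in a fit of its own 3 arrays, 0 with a trended and robust prior, and 0 to 20 with 1 array left out. The 53 of the miR-421 line became 31 in a fit of its own 3 arrays and 5 to 48 with 1 array left out. The count of 0 for the difference between lines became 1 with no background correction, and 0 to 1 with 1 array left out.

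The host median of the miR-338-5p line moved from 0.165 to 0.365 with the authors' deposited value table and 0.346 with the mean over a gene's probes (0.109 to 0.238 with 1 array left out). That of the miR-421 line moved from -0.143 to -0.003 with median centring and with that table (-0.164 to -0.038). The small RNA median of the miR-421 line moved from 0.027 to 0.048 with no background correction, 0.119 with plain subtraction, 0.168 with the ratio of the image software, 0.003 after centring on medians, 0.165 with the authors' table and 0.005 with no filter (-0.009 to 0.031). That of the miR-338-5p line ran from -0.034 to 0.04 with 1 array left out.

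What replicates of the same number share is not stated. Deviations of same-numbered arrays correlated at -0.155 and -0.214, those of other pairs between -0.149 and 0.189. So few arrays cannot show whether same-numbered replicates share more than the number. With the number as a replicate block, 0 members were called in either line, and host medians were 0.208 and -0.219. Replicate 3 and the pool each stand alone in their block, which leaves the fit very few degrees of freedom. Such a fit has little room for any call, so the 0 says little about the members. A fit of 1 group's arrays gives no difference between lines, and it and the prior were not run for medians. Dim spots limit the small RNA genes, of which 100 of 306 were above background on no array.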
